A study of Mus musculus with 6 samples.

Results

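The strongest sites of Bapx1 in NIH3T3 cells were 365 regions out of the 23207 peaks that the authors called with MACS in this cell line. NIH3T3 is a mouse fibroblast line. A peak was kept if it held 35 or more tags (mapped reads) of the V5-Bapx1 ChIP library and 10 or fewer tags of the V5 control library within 250 bp of its summit, with 1 tag counted per position and strand, on the autosomes and outside Nkx3-2, the gene that encodes Bapx1. The sites were therefore chosen by their tag counts in these 2 libraries, and those counts are given below as a description without a test. What the rule did not use, and could be compared, were the DNA sequence under the summits, the position of the summits relative to genes, and the tags of an independent pair of libraries from embryos.

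The V5-Bapx1 library came from NIH3T3 cells that overexpressed a V5-tagged Bapx1 cDNA from the pcDNA 6 vector, and chromatin was precipitated with a V5 antibody. The design text places the V5 tag at the N-terminus, whereas the methods of the study describe, for the reporter assays, a Bapx1 cDNA placed in front of the tag. The control was made with the same antibody, and its labels describe the cells both as transfected with empty vector and as wild type 3T3, while its title calls it input. The amount of Bapx1 in these cells is that of an expression vector and not of the endogenous gene. The embryo libraries came from vertebral columns of E12.5 embryos of the CD1 strain, dissected from many embryos and pooled. In 1 of them the endogenous Bapx1 carried an S-peptide tag, and in the other the embryos were wildtype, with the anti S-Peptide antibody used for both. Each condition had 1 library, so no spread between cultures or embryos could be measured, and the tests below compare numbers of sites within these libraries. Levels of marker genes cannot be read from chromatin libraries, so the identity of the cells was not checked here.

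Bapx1, also named Nkx3-2, is a homeobox transcription factor of the NK family. In the embryo it is expressed in the sclerotome, the part of the somite that forms the vertebrae, where it promotes the formation of cartilage and acts mainly as a repressor of transcription. The homeodomain of NK factors reads a short sequence around the core AAGTG. For Bapx1 the motif was written as TAAGTG or TGAGTG, read on both strands, so that it also appears as CACTTA or CACTCA.

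The following windows of 101 bp around the summit, from the plus strand of mm9, show the forms in which the motif was found among the strongest sites. Capitals mark each copy of TAAGTG or TGAGTG on either strand. The first 4 sites lie among the 12 with the most ChIP tags and hold the motif in a tandem repeat. They are named after the gene that holds the summit or has the nearest transcript start.
Cdh23 site, chr10:60157353-60157453: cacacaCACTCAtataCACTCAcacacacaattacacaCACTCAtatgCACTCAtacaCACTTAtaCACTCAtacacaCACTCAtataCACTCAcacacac
Akap12 site, chr10:6031557-6031657: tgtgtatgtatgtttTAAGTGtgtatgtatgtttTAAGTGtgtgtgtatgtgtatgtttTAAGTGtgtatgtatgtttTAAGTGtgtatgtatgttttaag
Rcan2 site, chr17:43892736-43892836: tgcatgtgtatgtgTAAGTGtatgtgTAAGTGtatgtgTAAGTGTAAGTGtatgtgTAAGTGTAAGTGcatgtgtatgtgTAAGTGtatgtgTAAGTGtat
Prr5 site, chr15:84454422-84454522: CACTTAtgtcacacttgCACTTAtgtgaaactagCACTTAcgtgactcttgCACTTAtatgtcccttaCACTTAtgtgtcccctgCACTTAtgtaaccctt
The next 3 hold the motif in sequence that was not a tandem repeat. The Gxylt1 site is among the 12 with the most tags, and the Xrcc5 and Mfsd1 sites were picked after their values were seen, to show a pair of motifs in the same orientation with starts 11 bp apart.
Gxylt1 site, chr15:93107181-93107281: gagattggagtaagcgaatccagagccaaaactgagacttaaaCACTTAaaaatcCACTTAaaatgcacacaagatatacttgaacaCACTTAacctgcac
Xrcc5 site, chr1:72363056-72363156: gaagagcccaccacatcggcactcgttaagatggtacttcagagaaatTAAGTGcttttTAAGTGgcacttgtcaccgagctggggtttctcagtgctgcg
Mfsd1 site, chr3:67415908-67416008: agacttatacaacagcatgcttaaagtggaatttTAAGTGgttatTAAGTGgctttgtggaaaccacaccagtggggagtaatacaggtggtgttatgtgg
The next 2 are the only members that overlapped a peak of the embryo Bapx1 library.
Mlana site, chr19:29755333-29755433: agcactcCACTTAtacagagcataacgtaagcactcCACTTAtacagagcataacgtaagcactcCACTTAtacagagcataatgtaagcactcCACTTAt
Tnfrsf1a site, chr6:125299569-125299669: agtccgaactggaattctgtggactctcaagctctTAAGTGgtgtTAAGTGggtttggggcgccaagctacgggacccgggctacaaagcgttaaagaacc
The last 3 are among the 4 sites with the most tags that hold no copy of the motif within 50 bp of the summit. Here the capitals mark TAAGTA or TGAGTA instead, words that were chosen after these windows had been read. All 3 are tandem repeats. The site of the 4 that is not shown, in an intron of Cntn5, is not a tandem repeat and holds 1 copy of TAAGTA.
Nepn site, chr10:52122120-52122220: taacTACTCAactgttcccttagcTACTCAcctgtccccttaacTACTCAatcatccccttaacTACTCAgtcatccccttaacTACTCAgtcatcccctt
Pwwp2b site, chr7:146473359-146473459: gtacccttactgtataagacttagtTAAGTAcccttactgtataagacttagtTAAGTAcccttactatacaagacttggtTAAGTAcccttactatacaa
Lyst site, chr13:13847521-13847621: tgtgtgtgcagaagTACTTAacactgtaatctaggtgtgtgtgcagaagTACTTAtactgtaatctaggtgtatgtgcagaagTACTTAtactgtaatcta

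The ChIP tags within 250 bp of the summit ranged from 35 to 223 over the 365 sites, with a median of 42, and the control tags from 0 to 10, with a median of 4. Together the sites held 18017 ChIP tags and 1684 control tags, from libraries of 8905520 and 12456861 distinct tags. In the authors' list the fold enrichment over the local background of these peaks ranged from 4.99 to 144 with a median of 45.5, against a median of 13.6 in the other 22316 autosomal peaks that had no more than 10 control tags but fewer than 35 ChIP tags. These 22316 peaks are the other peaks to which the strongest sites are compared below. The V5 control was itself raised at the strongest summits, with 417 and 405 tags in the 2 central bins of 100 bp over all 365 sites against 229 and 223 in the bins centred 950 bp to either side. At the other peaks these counts were 14610 and 14753 against 13684 and 13551. The wildtype control of the embryo held 470 and 432 tags in the central bins of the strongest sites against 361 and 353 in the same outer bins, and 25018 and 24981 against 21677 and 21458 at the other peaks. What part this has in the ChIP counts was not tested. The authors' false discovery rate was 0 for 136 of the strongest sites and at most 5.16%. At the other peaks it was 0 for 3 and at most 5.26%. The authors' fold and false discovery rate rest on tags of the kind by which the sites were chosen, so their differences are a description and no separate comparison.

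**Figure D1:**
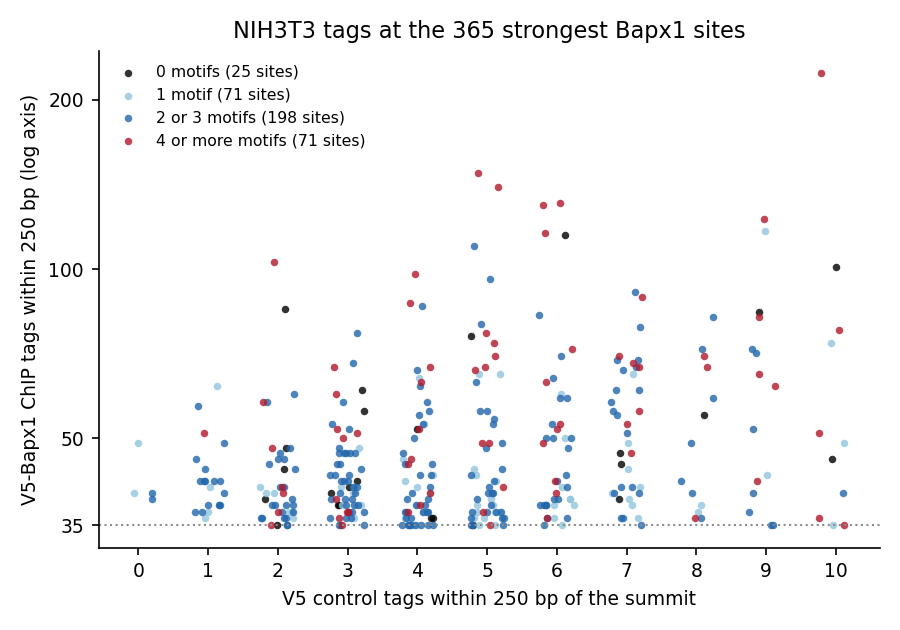
Each point is 1 of the 365 sites, placed by its tags in the V5 control (x axis, 0 to 10, spread sideways for visibility) and in the V5-Bapx1 ChIP (y axis, log scale), both within 250 bp of the summit, and coloured by the number of Bapx1 motifs within 50 bp. The dotted line is the lower limit of 35 tags. Most points lie near this limit, with a median of 42 tags, and the highest reaches 223.

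The limits cut through a continuous distribution. At the lower limit 32 members held exactly 35 ChIP tags, and 31 peaks with 34 tags fell just outside. Just inside were sites with 35 ChIP and 2 control tags at chr10:25924973-25925382, chr3:57580832-57581264 and chr4:115218353-115218674, and just outside were peaks with 34 ChIP and 0 or 1 control tags at chr5:131117962-131118376, chr5:47954125-47954633 and chr6:34616089-34616397. At the control limit 11 members held 10 control tags, the Cdh23, Cntn5 and CK137956 sites described below among them with 223, 101 and 78 ChIP tags. Just outside were 6 strong peaks with 11 control tags, of which the 3 with the most ChIP tags held 126, 62 (chr9:10280402-10282086) and 54 (chr5:104588053-104588716). Of all peaks with 35 or more ChIP tags, 584 in number, 3 lay off the autosomes and 216 exceeded the control limit. Among the latter were the 2 peaks over Nkx3-2, and 198 between 5.16 and 10.4 Mb of chromosome 9, where the control library is also high. Of the members, 5 lay in the same stretch of chromosome 9, with a control density between 1 and 10 kb from the summit of 5.63 to 8.86 times the median of all peaks. Outside these 5 no member exceeded 3 times the median.

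The site with the most tags lay in an intron of Cdh23, a cadherin of sensory hair cells, 1835 bp from a transcript start (peak chr10:60157075-60157996). It held 223 ChIP and 10 control tags, a ratio of 31.2 after scaling to the tags on the chromosomes. Its window has 8 motifs, 7 of them TGAGTG, in a CA-rich repeat. In the embryo libraries the same window held 27 Bapx1 and 17 wildtype tags, against medians of 7 and 5 over all members.

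The second site lay in an intron of Akap12, a scaffold protein that anchors protein kinase A (chr10:6031085-6032039). It held 148 ChIP and 5 control tags in NIH3T3 cells. In the embryo it held 7 Bapx1 and 6 wildtype tags, and its 4 motifs repeat at 19 and 25 bp.

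The third site, in an intron of the atypical cadherin Fat3 (chr9:15922091-15922661), held 140 ChIP and 5 control tags and 4 motifs. An intergenic site nearest to Agtpbp1, a carboxypeptidase that acts on tubulin (chr13:59342612-59343369), held 131 and 6 tags and 5 motifs. The Rcan2 site, 46014 bp from the start of this regulator of calcineurin (chr17:43892455-43893116), held 130 and 6 tags, and its 8 motifs were all TAAGTG. It was also 1 of the members with the most embryo tags, 28 for Bapx1 and 11 for wildtype. These sites share several motifs close to the summit, whereas their distances to genes differ widely.

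A site in an intron of Lrriq3 (chr3:154807105-154807847) held 123 ChIP and 9 control tags and 5 motifs. A site in an intron of Fhad1 (chr4:141502722-141503420) held 117 and 9 tags and only 1 motif. The Prr5 site, 45578 bp from the start of this component of the mTORC2 complex (chr15:84454241-84454743), held 116 and 6 tags, and its 6 motifs repeat every 17 bp. The Nepn site, in an intron of the gene of nephrocan (chr10:52121606-52122591), held 115 and 6 tags and no motif. The Gxylt1 site, 1621 bp from the start of this xylosyltransferase (chr15:93106903-93107647), held 110 and 5 tags and 3 motifs.

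The last of the 12 were a site in an intron of Ptprm, a receptor tyrosine phosphatase (chr17:67330174-67330691), with 103 ChIP and 2 control tags and 4 motifs, and a site in an intron of Cntn5 (chr9:9991313-9992505) with 101 and 10 tags and no motif. The Cntn5 site is 1 of the 5 in the stretch of chromosome 9 with high control density, 7.17 times the median around it. Of these 12 sites, 10 held the motif and 9 held it more than once.

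At least 1 Bapx1 motif lay within 50 bp of the summit at 340 of the 365 strongest sites, or 93.2% (95% interval 90.1 to 95.5, exact binomial, counting error only). Over all 22681 autosomal peaks within the control limit the share was 64.3%, and over the 22316 other peaks it was 63.8%. The difference between the strongest sites and the other peaks gave p = 6.38e-39 in a two-sided Fisher's exact test, and p = 1.59e-38 after Benjamini-Hochberg adjustment over the 5 comparisons of this kind. In windows of the same length centred 500 bp to either side of the same summits, the motif was found in 94 of 730, or 12.9%, with p = 1.5e-159 in a two-sided Fisher's exact test. This test treats the windows as independent and does not use the pairing of each summit with its own flanks. The strongest sites were therefore richer in the motif than both their own flanks and the weaker peaks.

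Most of the strongest sites held more than 1 motif. At least 2 motifs were found at 269 of 365, or 73.7% (68.9 to 78.1), against 24.8% of all peaks within the control limit and 24% of the other peaks, with p = 6.48e-87 and an adjusted p of 3.24e-86 in Fisher's exact test. By number of motifs, 25 of the strongest sites had 0, 71 had 1, 131 had 2, 67 had 3, 28 had 4 and 43 had 5 or more. Among the other peaks 0.730% had 5 or more. The peaks just below the limit, with 25 to 34 ChIP tags, held 2 or more motifs at 457 of 857 (53.3%, 49.9 to 56.7). The windows held 2.55 motifs per site on average at the strongest sites and 0.964 at the other peaks.

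**Figure D2:**
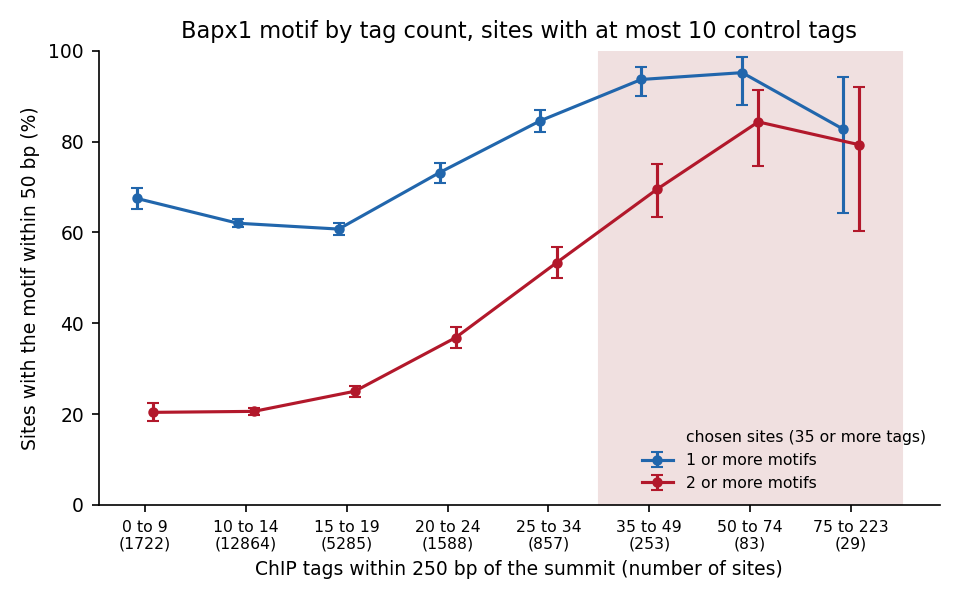
Peaks with at most 10 control tags are grouped by their ChIP tags (x axis, number of sites in parentheses), and the points give the share with 1 or more and with 2 or more Bapx1 motifs within 50 bp of the summit (y axis, percent) with exact 95% binomial intervals. The shaded bins are the chosen sites. The share with 2 or more motifs goes from 20.4% in the lowest bin to 84.3% at 50 to 74 tags.

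Over all peaks within the control limit the share of sites with the motif was not a straight function of the tag count. It was 67.5% in peaks with up to 9 tags, 60.7% at 15 to 19 tags, 84.6% (82.0 to 87.0) at 25 to 34 tags and 93.7% at 35 to 49 tags. At 75 or more tags it was 24 of 29, or 82.8% (64.2 to 94.2), beside 95.2% (88.1 to 98.7) at 50 to 74 tags, and the intervals of these bins overlap. Within the strongest sites, 153 of the 167 above the median of 42 tags (91.6%) and 187 of the 198 at or below it (94.4%) held the motif, a description without a test, since the sites were chosen by these counts. The number of motifs and the tag count had a Spearman correlation of 0.24 over the 365 sites, a description of sites that share 1 library.

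Of the 929 motifs within 50 bp of the 365 summits, 699 read TAAGTG and 230 TGAGTG. At 325 sites (89.0%) at least 1 TAAGTG was present, against 56.4% of the other peaks. Only TGAGTG was present at 15 of the 365 sites and at 1661 of the 22316 other peaks. At the other peaks TAAGTG made up 78.1% of the motifs, against 75.2% at the strongest sites. The motif lay close to the summit, with the nearest copy centred 5.5 bp away at the median of the 340 sites, and within 10 bp at 244 of them (71.8%), against 46.4% of the other peaks that held a motif. With several copies in a window the nearest one is also nearer by number alone, and this was not separated here. The summits also rest on different numbers of tags, a median of 42 at the strongest sites and 13 at the other peaks. The part of this in the distances and in the motif shares within 50 bp was not tested. Within 100 bp of the summit the motif was found at 94.8% of the strongest sites and 72.4% of the other peaks.

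**Figure D3:**
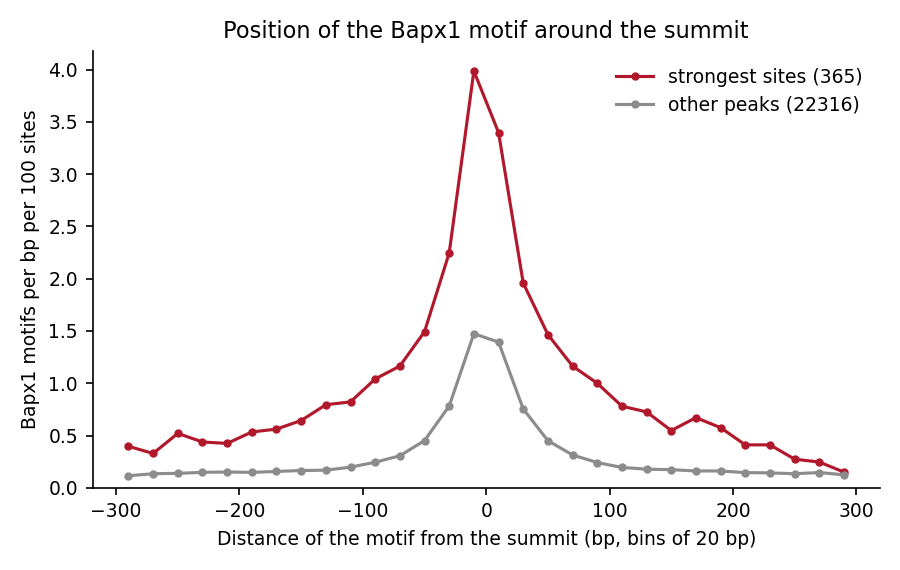
The number of Bapx1 motifs per bp and per 100 sites (y axis) is given in bins of 20 bp by distance from the summit (x axis) for the 365 strongest sites and the 22316 other peaks. The density at the strongest sites is highest in the 2 central bins, at 3.99 and 3.4, and at the other peaks the curve has the same centre and a lower height.

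Among all 2080 words of 6 letters, each counted with its reverse, TAAGTG had the largest excess at the strongest summits over their flanks, with 89.0% against 5.89% of windows. The word ACTTAA followed, at 69.3% against 5.21%, and its reverse TTAAGT shares 5 letters with the motif. The fourth was TAAGTA, at 40.3% against 4.11%, which differs from the motif only in its last letter. At the motif nearest the summit, the base before the motif was T in 52.6% of 340 sites and the base after it was T in 43.8% and A in 10.3%. At the other peaks the base before the motif was T in 52.8% and the base after it T in 34.1%.

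Where a window held several motifs, they mostly pointed the same way and lay close together. The 269 sites with 2 or more motifs gave 589 adjacent pairs, of which 504 (85.6%) had the same orientation, against 63.1% of 7279 pairs at the other peaks. Pairs in the same orientation with starts 8 to 12 bp apart made up 204 of the 589 (34.6%), and pairs in opposite orientation at that distance 18 (3.06%). At the other peaks these shares were 18.7% and 7.75%. A window with many motifs gives many pairs. By site, 117 of the 269 (43.5%) held a same-orientation pair 8 to 12 bp apart, against 20.5% of the other peaks with 2 or more motifs. With more copies in a window, adjacent ones also lie closer by number alone, and this was not separated here. Among pairs in the same orientation the spacings of 8 bp, with 58 pairs, and 10 bp, with 56, were the most frequent. The range was chosen after the spacings were seen, so no test is given.

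**Figure D4:**
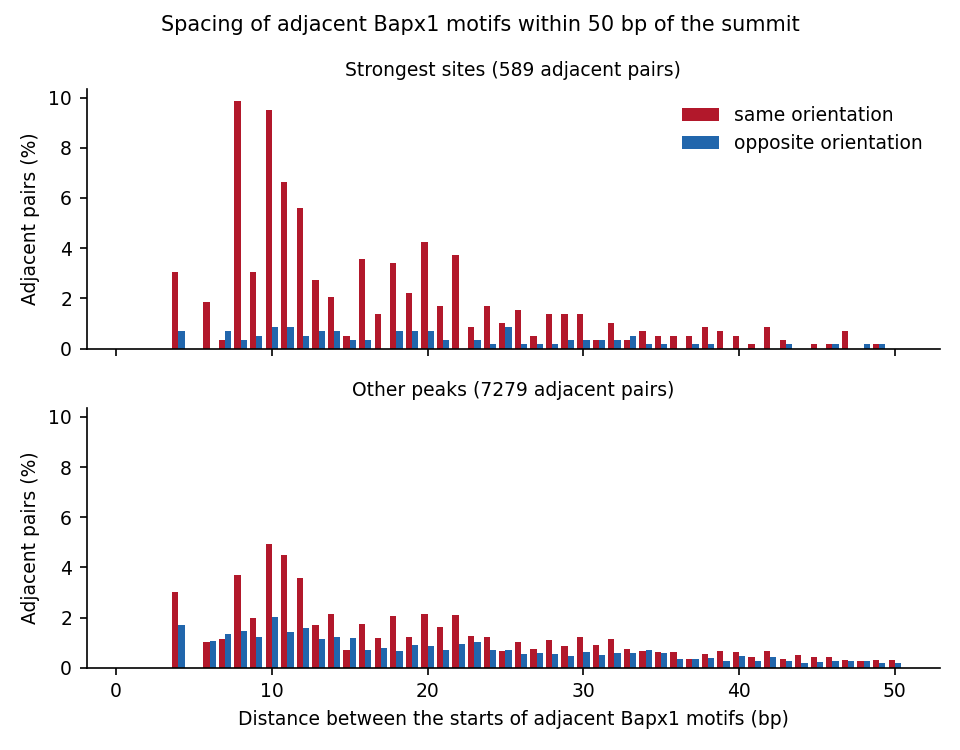
Adjacent Bapx1 motifs within 50 bp of the summit are counted by the distance between their starts (x axis, bp) and given as a percentage of all adjacent pairs (y axis), for the strongest sites (top, 589 pairs) and the other peaks (bottom, 7279 pairs), with both orientations side by side. At the strongest sites the same orientation has its highest bars at 8 and 10 bp, with 9.85% and 9.51% of pairs.

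Part of these motifs stood in tandem repeats. A window was called a tandem repeat if, shifted by some distance of 4 to 50 bp, at least 70% of its bases matched themselves, a limit set after the windows were seen. Of the strongest sites 64 (17.5%, 13.8 to 21.8) met it, against 259 of the 22316 other peaks (1.16%), and among the 50 sites with the most tags 21 met it. The median ChIP count was 50 at the 64 tandem windows and 41 at the 301 others, and the tandem windows held up to 13 motifs. The 3 windows with the most motifs were all of this kind, with 13 motifs at chr12:108732286-108733306, 12 in an intron of Rab3c (chr13:110860217-110860917) and 10 at chr10:25924973-25925382, and their ChIP counts were 52, 77 and 35. In such repeats copies of TGAGTG can overlap by 2 letters, and each copy is then counted. Only uniquely mapped tags were deposited, and the part that repeats play in the tag counts was not tested.

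The difference in motif shares was also seen among windows below this limit. No repeat annotation was used, so the windows below the limit can still hold repeats. The Agtpbp1 and Ptprm sites, with self-matches of 69.6% and 69.0%, are among them, and such windows held up to 9 motifs. Among the 301 strongest sites outside tandem windows, 284 (94.4%) held the motif and 215 (71.4%) held 2 or more, against 63.6% and 23.4% of the 22057 other peaks outside tandem windows. Same-orientation pairs 8 to 12 bp apart made up 129 of 385 adjacent pairs there (33.5%), against 17.3% of 6593. At any distance, 78.7% of these 385 pairs had the same orientation, against 59.5% of the 6593.

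The motif was absent within 50 bp at 25 of the strongest sites, and their ChIP counts ranged from 35 to 115 with a median of 45, while the highest count among all members was 223. Within 100 bp of the summit 6 of the 25 did have a copy, as did 1916 of the 8078 other peaks without the motif. The core AAGTG was present within 50 bp at 11 of the 25 (44.0%), and at 38.0% of those other peaks. A close relative, TAAGTA or TGAGTA, was present at 22 of the 25 (88.0%), and more than once at 18. These words were also seen at 163 of the 340 strongest sites with the motif (47.9%). They were seen at 30.1% of the 8078 other peaks without the motif and in 10.4% of the flanks of the strongest sites. Since they were picked from these windows no test is given. Of the 25 sites, 8 (32.0%) were tandem windows, against 17.5% of all strongest sites and 0.594% of the other peaks without the motif. At the Nepn site TGAGTA stands 5 times at steps of 20 bp, and at the Pwwp2b site TAAGTA stands 3 times at steps of 28 bp. The Pwwp2b site, 39028 bp from the start of this chromatin factor gene (chr7:146473101-146473767), held 85 ChIP and 2 control tags in NIH3T3 cells and 13 Bapx1 and 2 wildtype tags in the embryo. The Lyst site (chr13:13847013-13847938) held 84 and 9 tags, and 26 and 31 in the embryo libraries.

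Motifs of other factors were, where they differed, less frequent at the strongest sites. Of 13 motifs of other factor families, 4 differed from the other peaks in Fisher's exact test with adjustment over the 13, and all 4 were less frequent at the strongest sites. With 50 or more ChIP tags as the limit, which leaves 112 sites, 0 of the 13 differed, and with all tags kept 6 did. The AP-1 motif TGANTCA, bound by Fos and Jun proteins, was found at 7 of 365 (1.92%) against 8.04% of the other peaks (adjusted p = 1.49e-05, Fisher's exact test). The TALE words TGATTGA or TGACAG of Pbx and Meis factors were found at 3.56% against 7.17% (adjusted p = 0.0233, Fisher's exact test), and the E-box CANNTG at 31.8% against 38.5% (adjusted p = 0.0297, Fisher's exact test). The SP/KLF word GGGCGG was found at 0 of 365, which allows a share of up to 0.822%, against 1.79% (adjusted p = 0.0233, Fisher's exact test). The windows of the strongest sites had a median GC content of 35.6%, and those of the other peaks 38.6%, and the part of base composition in these differences was not tested.

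Most of the strongest sites, like most of the other peaks, lay more than 5 kb from a transcript start. In the GENCODE annotation of mm9 the summit fell in an intron at 189 of 365 sites (51.8%), between genes at 169 (46.3%), in a non-coding exon at 4, in an untranslated region at 3 and in coding sequence at 0, which allows a share of up to 0.822%. These features were not counted at the other peaks, so no share of them can be read as particular to the strongest sites. The median distance to a transcript start was 22488 bp, against 20486 bp at the other peaks, and 172 sites (47.1%) lay more than 25 kb away, against 45.8% of the other peaks. Within 5 kb of a start lay 82 sites, or 22.5% (18.3 to 27.1), against 25.9% of all peaks within the control limit and 25.9% (25.4 to 26.5) of the other peaks, with p = 0.148 and an adjusted p of 0.247 in Fisher's exact test.

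At a shorter range the groups differed. Within 1 kb of a start lay 12 strongest sites (3.29%), against 10.8% of all peaks within the control limit and 10.9% of the other peaks, with an unadjusted p of 2.16e-07 in Fisher's exact test. Over the peaks within the control limit the share within 1 kb was 4.47% in peaks with up to 9 tags, 15.2% at 15 to 19 tags and 7.00% at 25 to 34 tags. No site with 75 or more ChIP tags, of 29, lay within 1 kb, with an exact interval up to 11.9%, which includes the share of the other peaks. The nearest to a start of the 12 were the sites at Arl2 (85 bp), a small GTPase, with 38 ChIP and 6 control tags, and at Tnfrsf1a (122 bp), the TNF receptor, with 41 and 6. They were named for their distance after their values were seen.

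Of the sites within 5 kb of a start, the 6 with the most tags included the Cdh23, Fhad1 and Gxylt1 sites. The other 3 were a site 2780 bp from a 7SK RNA and 3656 bp from Tbc1d15, a GTPase-activating protein (chr10:114692032-114692362, 87 ChIP and 4 control tags), a site 1398 bp from a start of Mllt3, a subunit of the super elongation complex (chr4:87453307-87453855, 86 and 4 tags), and a site 1278 bp from a start of CK137956 (chr4:127646519-127647227, 78 and 10 tags). These 3 windows held 4, 3 and 4 motifs.

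The sites were spread over all 19 autosomes. Over all autosomes they were 365 of the 22681 peaks within the control limit. Chromosome 10 had the most, 40, which is 2.26% of its peaks within the control limit, and chromosome 14 the fewest, 6, or 1.01%. The median control density between 1 and 10 kb from the summits, relative to that of all peaks, was 1.08 on chromosome 10 and 0.738 on chromosome 14. On chromosome 18 it was 0.777, with a share of 1.95%. The part of control density in these shares was not tested. No member had another within 1 kb, 2 did within 10 kb and 25 within 100 kb. Weaker peaks nearby were not counted. No such count was made for the other peaks, so these numbers do not show whether the sites were clustered or spread.

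Genes of 11 lists that fit the fibroblast, the cartilage and the pathways around Bapx1 were searched for a strongest site within 100 kb of a transcript start. Of 305 genes found in the annotation, 13 (4.26%) had one, against 3.28% of the 21418 autosomal protein-coding genes, so the lists were near the background. None was found for 21 genes of the cartilage matrix, which allows a share of up to 14.3%, for 15 genes of the Hedgehog pathway (up to 20%), for 22 AP-1 and immediate early genes (up to 13.6%) or for 25 cell cycle genes (up to 12%). A peak of any strength lay within 100 kb of 274 of the 305 genes (89.8%), against 81.2% of all 21418.

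Of the 32 genes of fibroblast matrix and adhesion, 3 (9.4%) had a strongest site, against 3.28% of all autosomal protein-coding genes. No test was made of single lists. Thbs1, the adhesive glycoprotein thrombospondin 1, had one at 7508 bp (chr2:117929943-117930226) with 35 ChIP and 3 control tags. Col5a2, a fibrillar collagen chain, had one at 11066 bp (chr1:45439243-45439677) with 40 and 7 tags, and the neighbouring collagen gene Col3a1 one at 30400 bp (chr1:45337761-45338328) with 41 and 2. Each of the 3 windows held 2 motifs.

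Of 30 genes of the actin cytoskeleton and the Hippo pathway 3 (10%) had one, against 3.28% of all autosomal protein-coding genes. They were Mkl1 at 7975 bp (50 ChIP and 6 control tags), Amotl2 at 14672 bp (39 and 4) and Tpm1 at 73825 bp (35 and 4). Another member lay in an intron of Mkl1, 24052 bp from a start (chr15:80959214-80959732), with 67 and 7 tags. Mkl1 is a coactivator of serum response factor, Amotl2 an angiomotin that binds Hippo pathway proteins, and Tpm1 a tropomyosin. The Amotl2 site (chr9:102603922-102604919) had 33 Bapx1 and 15 wildtype tags in the embryo, more than most members. Among 43 genes of the BMP and TGF-beta pathways only Grem1 (2.33%), a secreted BMP antagonist, had a site. It lay at 20090 bp (chr2:113618670-113619135), with 42 ChIP and 3 control tags and 2 motifs.

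Of 36 skeletal transcription factors, Mef2a (2.78%) had a site at 79758 bp, with 70 ChIP and 8 control tags. Of 42 Wnt pathway genes, the coreceptor Lrp5 (2.38%) had one at 33896 bp, with 56 and 5. Of 21 FGF pathway genes, Fgf1 (4.76%) had one at 76100 bp, with 41 and 5. These sites lay nearer to other starts, at 4784 bp from 1700112J16Rik, 12127 bp from 1810055G02Rik and 11312 bp from Gm15334. Of 19 NK-cluster homeobox genes, the family of Bapx1 itself, 3 (15.8%) had a site, against 3.28% of all autosomal protein-coding genes. This share rests on 2 sites and was not tested. Lbx1 had one at 28630 bp with 40 and 7 tags. Nkx2-4 and Nkx2-2 shared one, at 39527 and 61289 bp, with 41 and 3 tags and no motif.

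In the E12.5 vertebral column few of the strongest NIH3T3 sites overlapped a Bapx1 peak, and few of the NIH3T3 peaks in general did. An embryo peak overlapped 2 of the 365 by at least 1 bp, or 0.548% (0.0664 to 1.97), against 0.789% of all NIH3T3 peaks within the control limit and 177 of 22316 other peaks (0.793%), with p = 1 in Fisher's exact test. With 2 overlaps the interval covers shares well below and above that of the other peaks. S-peptide Bapx1 tags within 250 bp of the summit ranged from 0 to 94 with a median of 7, and wildtype tags from 0 to 31 with a median of 5.

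**Figure D5:**
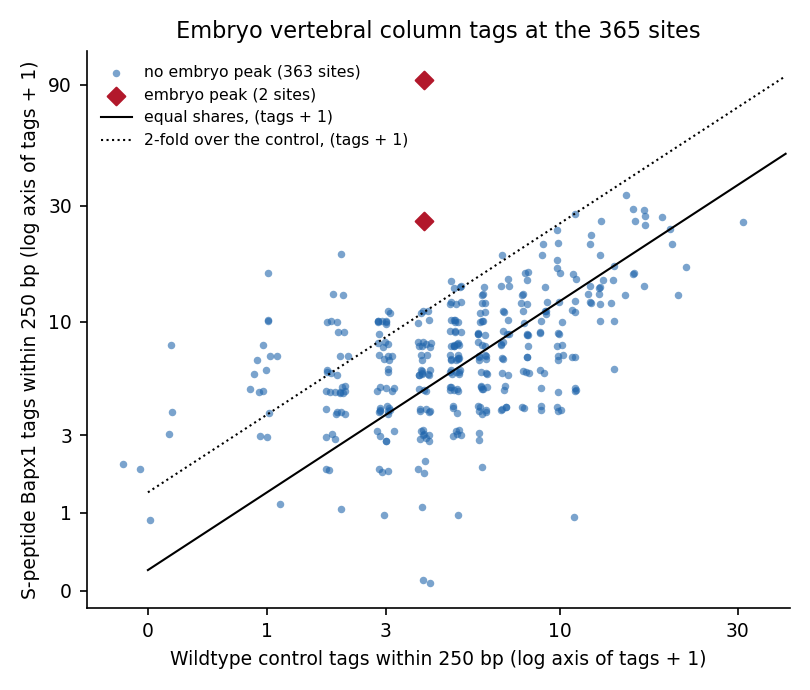
Each point is 1 of the 365 sites, placed by its tags within 250 bp of the summit in the wildtype control (x axis) and in the S-peptide Bapx1 library (y axis) of the vertebral column, on log axes of tags + 1 with points spread slightly. The solid line is where tags + 1 stand in the ratio of the library sizes, and the dotted line is 2-fold above it. Of the points, 46 reach the dotted line, and the 2 diamonds are the sites that overlap an embryo peak.

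After scaling to library size, with 1 tag added to each count, 46 of the strongest sites (12.6%, 9.38 to 16.5) had at least 2-fold more embryo Bapx1 than wildtype tags. The share over all peaks within the control limit was 12.2%, with p = 0.809 and an adjusted p of 1 in Fisher's exact test for the strongest sites against the other peaks. Summed over sites, the strongest ones held 3151 Bapx1 and 2227 wildtype tags, a scaled ratio of 1.18 (1.12 to 1.24), and the other peaks had 1.11 (1.10 to 1.12). Within 100 bp of the summit the ratios were 1.29 (1.19 to 1.41) and 1.15 (1.14 to 1.16). Without the 2 sites that overlap an embryo peak they were 1.14 (1.08 to 1.20) within 250 bp and 1.23 (1.13 to 1.34) within 100 bp at the strongest sites. These intervals cover counting error only, and a difference between the ratios was not tested.

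The 2 sites that overlapped an embryo peak differed in kind. The Mlana site, between genes and 17028 bp from the start of this melanocyte gene (chr19:29755139-29755519), held 50 ChIP and 3 control tags in NIH3T3 cells. In the embryo it held 94 Bapx1 and 4 wildtype tags, the highest embryo count of all members, and the authors' embryo summit lay 71 bp away, with a false discovery rate of 25% for that peak. Its 4 copies of TAAGTG repeat every 29 bp. The Tnfrsf1a site, in an intron of the gene (chr6:125299264-125299975), held 41 and 6 tags in NIH3T3 cells and 26 and 4 in the embryo, with summits 6 bp apart and an authors' false discovery rate of 66.2% for the embryo peak. It has 2 copies of TAAGTG in the same orientation with starts 10 bp apart in sequence that is not a tandem repeat.

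Among the members with no embryo peak, a few had several times more Bapx1 than wildtype tags. A site in an intron of Ahnak2 (chr12:114027328-114028193) held 19 and 2 embryo tags, with 49 ChIP and 5 control tags in NIH3T3 cells and 7 motifs, and an intergenic site (chr16:5529535-5530164) held 16 and 1, with 38 and 6 in NIH3T3 cells and 1 motif. They were chosen after their values were seen. No test was made of single sites.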

How the data were processed

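Chromatin immunoprecipitation was sequenced in V5-Bapx1 NIH3T3 cells, their V5 control, and E12.5 vertebral columns with and without S-peptide tagged Bapx1, 1 library each. Per the methods of the study, the authors mapped tags with the Illumina GA Pipeline to mm9, kept unique tags with at most 2 mismatches, and called peaks with MACS at a p cutoff of 1e-05. They deposited the tag positions and, per peak, the count of tags, a score of 10 times −log10 of p, the fold enrichment, which is a ratio, and the percent of false discoveries (FDR). No peaks were called again.

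Libraries held 9124697 (V5-Bapx1), 13327426 (V5 control), 24855032 (S-peptide Bapx1) and 20704235 (wildtype) tags. In the NIH3T3 libraries 2.40% and 6.53% repeated a position and strand and were dropped, and the embryo libraries held no repeats. Tags of 35 bp were counted by their 5′ end within 250 bp of the summit, motifs within 50 bp on both strands of the NCBIM37 (mm9) sequence without repeat masking, and starts and features with GENCODE M1 of the same assembly. Embryo ratios were scaled to tags on the chromosomes, with 1 tag added per site. Shares were compared by two-sided Fisher's exact tests at 0.05, adjusted by Benjamini-Hochberg over 5 site comparisons or 13 motifs. Sites are not replicates, so each p describes these libraries. Intervals are exact binomial (Clopper-Pearson) at 95% and, like the limit of 3 counts for a share of 0, cover counting error only.

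The members, gene lists and motifs were chosen with earlier results of these data known. The sites named are the 12 with the most ChIP tags, those with an embryo peak, the 6 with the most tags within 5 kb of a start, 4 without the motif, the 3 with the most motifs, and 3 on each side of each limit. The list genes with a site within 100 kb are also named, each with the site nearest to a start of that gene, and other genes can lie nearer to that site. Other sites are said to be chosen after their values were seen. The motif search and tag counting were tested on simulated data. Python 3.11.15, numpy 2.4.6, pandas 2.3.3, scipy 1.17.1 and samtools 1.23.1 were used. The Sox9 and IgG libraries were not used here.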

Additional observations from a re-analysis of the deposited data

How the results depend on the processing

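The comparisons were repeated with all tags kept, another placement of tags, 50 or more ChIP tags, all other peaks of the list, other motif words and windows, peak centres, other flanks, coding transcripts, other distances, overlap rules, fold limits and scalings, the authors' FDR of at most 5%, and, added after the data were seen, without tandem windows and without the sites of high surrounding control. Of the alternative values, 63 were counted as unchanged, 5 as reversed, 3 as moved and 1 as stronger. The unchanged ones include all settings of the split of the strongest sites at their median tag count, which is a description only. For shares, unchanged means the same direction and the same side of the threshold. For the embryo ratio it means a value inside the interval of the main setting. For the other motifs it means a number of differing motifs of similar size, such as 6 beside 4. The excess of the motif over other peaks and flanks held in each alternative, with shares from 37.8% (an extended motif) to 94.8%, and so did that of 2 or more motifs over other peaks, with shares from 12.6% (the extended motif) to 83.0% (50 or more tags). The share within 5 kb of a start, which did not pass the test, became a call at 1 kb (3.29%). The embryo comparisons did not pass in any setting and turned direction with all tags kept (12.1% at least 2-fold) and without tandem windows (11.6%), and for the overlap with 50 or more tags (0.893%), with summits within 100 bp (0.548%) and with embryo peaks of p at most 1e-10 (0.274%). The embryo ratio was 1.28 with 50 or more tags and 1.29 within 100 bp. With 50 or more tags, 0 of the 13 other motifs differed, on 112 sites. The causes of these changes were not tested.

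No paired analysis was possible because each condition had 1 library and the labels carry no replicate numbers. No replicate was left out and no difference between conditions was tested, with 1 library each. The control library is deeper than the ChIP library, and a site in the embryo libraries held a median of 7 and 5 tags, which limits what can be seen at a single site.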
